A study of Mus musculus with 20 samples.

Results

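Lungs of irradiated C57BL/6 mice that had eaten flaxseed were compared with lungs of irradiated mice that had not, over all 9600 clones of the MA07 array. The comparison used 10 of the 20 arrays of the series, chosen by the treatment in their labels: 5 mice fed a diet of 10% flaxseed for 21 days before a thoracic dose of 13.5 Gy, and 5 mice given the same dose alone. All 10 lungs were taken 48 hours after irradiation, so radiation is common to both sides and diet is the labelled difference. The other 10 mice, 5 untreated and 5 fed flaxseed without radiation, entered the fit for the spread of each clone and gave the diet difference in unirradiated lung. The sources used here give no sex or age, nor what the mice without flaxseed ate. The labels number the mice 1 to 20 with 1 array each, and each array counts here as a separate animal. Within a group the mice are called 1 to 5 in the order of those numbers, a name that pairs no mice.

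Flaxseed is a source of alpha-linolenic acid, a plant omega-3 fatty acid, and of the lignan secoisolariciresinol diglucoside, which gut bacteria turn into the mammalian lignans enterodiol and enterolactone. In rodents the diet has been studied as a protectant against lung injury by oxidants. Ionising radiation of the thorax damages DNA directly and through reactive oxygen species, activates the p53 response within hours, and is followed weeks later by pneumonitis and later still by fibrosis.

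The clones carry serial IDs, and the files do not pair these with gene names: 0 of the 9600 IDs matched an entry of the mouse RefSeq gene table of assembly GRCm38.p6. No pathway, no cell type and not the lung origin of the RNA could therefore be checked against marker genes, and at most 2 clones in each direction are given by ID. In bulk lung, fewer cells of a type and less RNA per cell cannot be told apart.

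Spots were bright enough for most clones to be compared. Median spot signals ran from 97.4 to 336 intensity units on the 10 irradiated arrays, against median backgrounds of 13.4 to 46.7 units. On all 10 arrays 7901 clones (82.3%) exceeded 2 times their background, 1408 did so on some arrays and 291 on none. The log2 median signal was 7.49 ± 0.284 with flaxseed and 7.52 ± 0.701 without (SD, n = 5), and log2 median background was 4.67 ± 0.476 and 4.79 ± 0.671. Neither difference passed a two-sided exact permutation test (p = 0.984 and p = 0.73, each 0.984 after Benjamini-Hochberg adjustment over 4 array measures). The share of spots over 2 times background was 91.0% ± 1.97 and 91.1% ± 1.72 (SD, n = 5; exact permutation p = 0.937, adjusted 0.984). Residual spread around the group means was lower with flaxseed, at 0.326 ± 0.048 against 0.384 ± 0.0236 log2 units (SD, n = 5; two-sided exact permutation p = 0.0397, adjusted 0.159). Its ranges overlapped, 0.271 to 0.369 with flaxseed and 0.354 to 0.413 without.

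The first question was whether flaxseed changed the level of any clone in irradiated lung. In limma 0 of the 9600 clones (0%) were called at an adjusted p under 0.05, and the smallest adjusted p was 0.0837. Without adjustment 580 clones (6.04%) had p under 0.05, where 480 would at a uniform p. Of these, 285 (2.97%) were higher and 295 (3.07%) were lower with flaxseed, so that the small p-values were divided evenly between the directions. Quantile normalisation gave every array the same distribution, so the even split says nothing about a shift of all clones together. At p under 0.01 there were 176 clones where a uniform p gives 96, with 89 higher and 87 lower. At p under 0.001 there were 22 where it gives 9.6, with 15 higher and 7 lower. Clones are not independent, so these excesses carry no test.

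**Figure D1:**
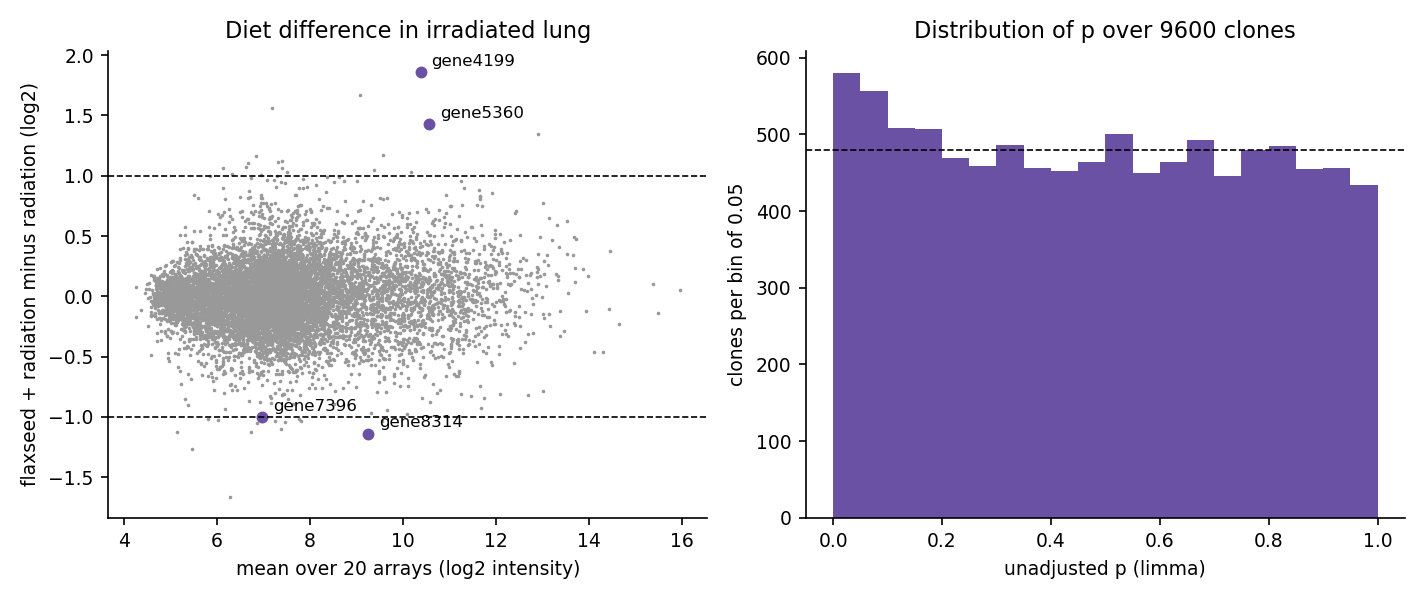
Left, the diet difference in irradiated lung (5 mice given flaxseed and radiation minus 5 given radiation, log2) of each clone against its mean log2 intensity over 20 arrays, with the 4 clones given by ID in purple and dashed lines at 2-fold. Right, the number of clones per bin of unadjusted limma p, with a dashed line at the 480 clones per bin of a uniform p. All but 34 clones lie between the 2-fold lines, and the first bin of p holds 580 clones, the most of any bin.

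Measured differences were small. Their median was 0.000703 on the log2 scale, and the median absolute difference was 0.159, or 1.12-fold. The 5th and 95th percentiles were -0.434 and 0.439, and 372 clones (3.88%) differed by more than 1.5-fold. Only 34 clones (0.354%) differed by more than 2-fold, 18 higher and 16 lower with flaxseed, and the extremes were -1.66 and 1.86. The median SD of these 34 clones within the 2 irradiated groups was 0.67 log2 units, against 0.345 over all clones. Of the 34, 28 had an unadjusted p under 0.05, and in 4 the 5 mice of one diet lay apart from the 5 of the other. The median difference near 0 was largely set by the normalisation, and a shift common to all clones could not be seen.

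The root mean square of the differences over all clones was 0.27 log2 units, and the spread of mice within the 2 groups would by itself give 0.253. For the diet in unirradiated lung these values were 0.288 and 0.255. For radiation they were 0.36 and 0.254 without flaxseed and 0.381 and 0.253 with it. Diet differences in irradiated lung were thus the nearest of the 4 pairs of groups to the size that the spread within groups gives, a description with no test.

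Separation of the groups gave a similar picture. For 108 clones (1.12%) no flaxseed-fed irradiated mouse overlapped an irradiated mouse without flaxseed, 57 (0.594%) of them higher and 51 (0.531%) lower with flaxseed. In unirradiated lung 159 clones (1.66%) were separated by diet. The separated clones of irradiated lung had a median absolute difference of 0.588 log2 units, and 85 of the 108 also had an unadjusted p under 0.05.

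Whole arrays were not shown to be more alike within a diet than between diets. Across clones, arrays of irradiated mice without flaxseed correlated with each other at a mean r of 0.939 and those of flaxseed-fed irradiated mice at 0.955, while arrays of opposite diets correlated at 0.945. Pairs within a diet thus exceeded pairs between diets by 0.00152 (one-sided exact permutation test over 252 labelings of the 10 arrays, p = 0.143). In unirradiated mice the same excess was 0.00296 (exact permutation p = 0.0635). The smallest p this test allows is 0.00794, and it was chosen after the clone results had been seen.

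The clone nearest to a call was gene5360, which was brighter than 93.2% of clones or equal to them. In the 5 flaxseed-fed irradiated mice it was at 10.61, 10.64, 10.59, 11.16 and 10.08 log2 intensity. In the 5 irradiated mice without flaxseed it was at 8.43, 9.34, 9.54, 9.05 and 9.56. The groups did not overlap, since the lowest value with flaxseed lay above the highest without. Means were 10.62 ± 0.383 and 9.18 ± 0.469 (SD, n = 5), which differ by 1.43 (SE 0.249, limma adjusted p = 0.0837) or 2.69-fold, with an unadjusted 95% interval of 1.88-fold to 3.85-fold. Untreated mice were at 11.09 ± 0.474 and mice fed flaxseed alone at 11.37 ± 0.305 (SD, n = 5), above both irradiated groups. Radiation lowered it by a log2 difference of -1.91 without flaxseed (SE 0.249, limma adjusted p = 0.000559). With flaxseed the radiation difference was -0.76 (SE 0.249, adjusted p = 0.117). The test of the difference between these responses did not pass (1.15, SE 0.352, limma adjusted p = 0.531). The diet and radiation differences share the irradiated mice without flaxseed.

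The clone gene4199 had the largest positive difference of all. It was at 11.31, 10.75, 10.27, 11.39 and 11.07 log2 intensity in the 5 flaxseed-fed irradiated mice. In irradiated mice without flaxseed it was at 8.21, 8.87, 9.67, 8.41 and 10.33. The groups overlapped by 1 mouse on each side, since irradiated mouse 5 lay just above the third flaxseed-fed mouse. Means were 10.96 ± 0.46 and 9.10 ± 0.887 (SD, n = 5), and their difference was 1.86 (SE 0.374, limma adjusted p = 0.223), which is 3.63-fold with an interval of 2.12-fold to 6.22-fold. Untreated mice (10.72 ± 0.738) and flaxseed-fed unirradiated mice (10.79 ± 0.468; SD, n = 5) were close to the mice given both treatments. Its spread within a group was wide, and a difference of 2.23 would have been needed for this clone alone to pass, against 1.48 for gene5360. The radiation difference of gene4199 was -1.62 without flaxseed (SE 0.374, limma adjusted p = 0.0466) and 0.17 with it (SE 0.374, adjusted p = 0.891). The test of the difference between these responses did not pass (1.79, SE 0.529, limma adjusted p = 0.526).

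Among clones lower with flaxseed, gene7396 had the smallest p. It was at 6.53, 6.12, 6.70, 7.01 and 6.69 log2 intensity in flaxseed-fed irradiated mice. Irradiated mice without flaxseed were at 7.74, 8.02, 7.78, 7.60 and 6.93. Irradiated mouse 5 was again the one that reached into the other group. The group means of 6.61 ± 0.324 and 7.61 ± 0.411 (SD, n = 5) gave a difference of -1.004 (SE 0.207, limma adjusted p = 0.223) or 2.01-fold, with an interval of 1.49-fold to 2.70-fold. Its signal was 4.57 to 9.62 times the background in the mice given both treatments and 4.41 to 11.2 times in irradiated mice. It is the dimmest of the 4 clones, at 6.84 ± 0.305 in untreated and 6.85 ± 0.234 in flaxseed-fed unirradiated mice (SD, n = 5). Its radiation difference was 0.77 without flaxseed (SE 0.207, limma adjusted p = 0.0775) and -0.24 with it (SE 0.207, adjusted p = 0.625). The test of the difference between these responses did not pass (-1.02, SE 0.293, limma adjusted p = 0.451).

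The clone gene8314 followed. It was at 9.58, 8.80, 9.35, 8.41 and 9.19 log2 intensity in flaxseed-fed irradiated mice and at 10.73, 10.02, 10.18, 10.79 and 9.30 without flaxseed. Irradiated mouse 5 lay below the highest flaxseed-fed mice, and the other 4 lay above all of them. The group means of 9.06 ± 0.464 and 10.20 ± 0.606 (SD, n = 5) gave a difference of -1.14 (SE 0.258, limma adjusted p = 0.253) or 2.20-fold, with an interval of 1.52-fold to 3.19-fold. Untreated mice were at 9.11 ± 0.214 and mice fed flaxseed alone at 8.64 ± 0.349 (SD, n = 5). The radiation difference was 1.09 without flaxseed (SE 0.258, limma adjusted p = 0.0493) and 0.42 with it (SE 0.258, adjusted p = 0.463). The difference between these responses was -0.67 (SE 0.365, limma adjusted p = 0.852). Irradiated mice without flaxseed enter both the radiation difference and the diet difference by which the clone was picked, so its size and p reflect that choice in part.

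**Figure D2:**
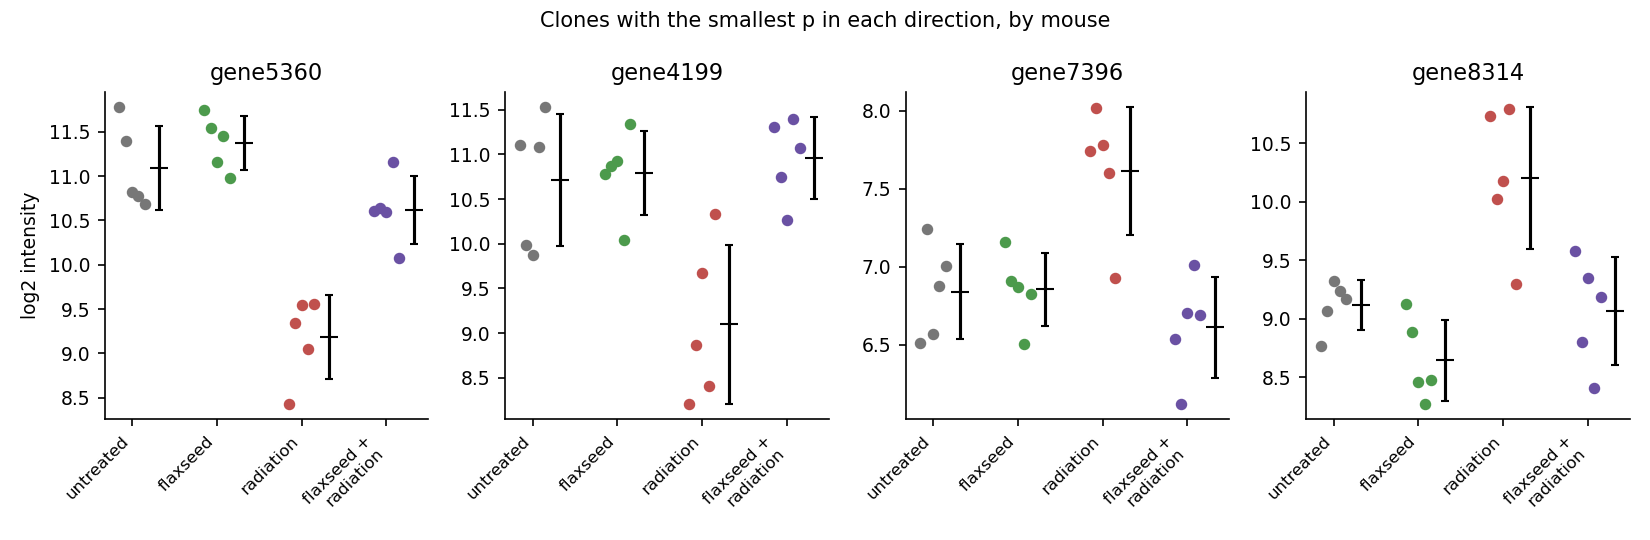
Log2 intensity of gene5360, gene4199, gene7396 and gene8314 in each of 20 mice, 5 per group, with the mean and SD of the group in black beside its points; the vertical axes differ and do not start at 0. For gene5360 the mean of mice given both treatments (10.62) sits between those of irradiated (9.18) and unirradiated mice, and for gene4199 and gene7396 they sit with the unirradiated mice.

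The 4 clones had been picked for the smallest p in this contrast, so their sizes and order in the irradiated groups reflect that choice and are a description. The diet difference of unirradiated mice did not enter that choice, but these mice did, through the spread of each clone and the joint normalisation. They are therefore not a separate check. In them the diet differences were 0.28, 0.07, 0.01 and -0.47 for gene5360, gene4199, gene7396 and gene8314 (SE 0.249, 0.374, 0.207 and 0.258), with limma adjusted p of 0.806, 0.984, 0.998 and 0.633. None of these passed.

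Single mice decided how many clones passed. Without irradiated mouse 5, 6 clones passed in limma, 2 higher and 4 lower with flaxseed, and the 4 clones above were among them: gene5360 at 1.52 (SE 0.263, adjusted p = 0.0206), gene4199 at 2.17 (SE 0.352, adjusted p = 0.017), gene7396 at -1.18 (SE 0.195, adjusted p = 0.017) and gene8314 at -1.36 (SE 0.238, adjusted p = 0.0206). That mouse had the highest residual spread of the 10 irradiated arrays, 0.413 log2 units. Its array correlated at a mean r of 0.947 with arrays of flaxseed-fed irradiated mice and of 0.934 with its own group. All 5 irradiated arrays without flaxseed correlated more with the other diet, at 0.943 to 0.947, than with their own group, at 0.934 to 0.943. Only gene5360 passed without untreated mouse 1 (adjusted p = 0.0389) or without mouse 5 given both treatments (adjusted p = 0.0442), and no clone passed when any of the other 17 mice was left out.

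The second question was how large a diet effect could have gone unseen. A clone changed alone would have needed a difference of 2.52-fold in the median, and of 1.87-fold to 4.33-fold from the 5th to the 95th percentile of clones, to reach an adjusted p of 0.05. At 2-fold 11.4% of clones would have passed alone, at 3-fold 75.9% and at 4-fold 93.2%, taking the measured difference as the true one. The limit falls when many clones change together, because the adjustment is then less severe.

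Confidence intervals bound the effects more closely than the calls do. All limits given here are relative to the other clones of an array, since the normalisation removes a shift common to all clones. The 95% interval of a clone had a median half-width of 0.463 log2 units, or 1.38-fold. The interval lay wholly within 1.5-fold of no difference for 3802 clones (39.6%), within 2-fold for 8608 (89.7%), within 3-fold for 9523 (99.2%) and within 4-fold for 9586. In the median clone the far end of the interval lay at 1.56-fold, and at the 95th percentile of clones at 2.23-fold. The 992 clones whose interval reached 2-fold included 522 that could hold an increase of that size and 484 that could hold a decrease. In 14 clones the interval reached 4-fold.

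With allowance for the number of clones the limits were as follows. By 2 one-sided tests per clone, adjusted over all clones by Benjamini and Hochberg, 8969 clones (93.4%) were within 2-fold at an adjusted p under 0.05, 2658 (27.7%) within 1.5-fold and 9555 (99.5%) within 3-fold. This left 631 clones not shown to lie within 2-fold and 45 not shown to lie within 3-fold. Intervals that hold for all 9600 clones at once were wider, and lay within 2-fold for 517 clones, within 3-fold for 5344, within 4-fold for 8073 and within 8-fold for 9446.

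**Figure D3:**
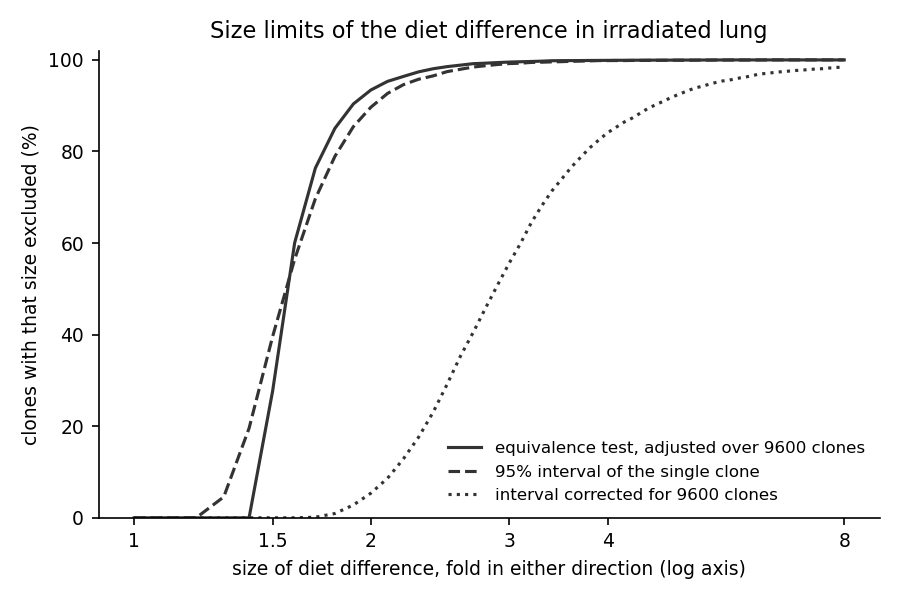
Share of the 9600 clones (%) whose diet difference in irradiated lung was shown to be smaller than the fold on the horizontal log axis, by the clone's own 95% interval (dashed), by an equivalence test adjusted over all clones (solid) and by an interval corrected for all clones (dotted). At 2-fold the shares are 89.7%, 93.4% and, for the corrected interval, 517 of 9600 clones. The equivalence test is one-sided and the intervals are two-sided, so the solid line is not on the same measure as the others.

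The limits depended on brightness and on the offset of 16.3 units that was added to each intensity. In the dimmest 10% of clones the median half-width was 0.326 and 98.0% of the 960 clones had an interval within 2-fold, while in the brightest 10% these were 0.562 and 79.1%. An offset compresses dim clones, and only 26.5% of the spots of these dimmest clones on irradiated arrays exceeded 2 times their background. Without the offset 81.1% of the dimmest 960 clones and 78.1% of the brightest 960 had an interval within 2-fold, with half-widths of 0.531 and 0.581. For dim clones the limits hold for the offset scale and understate how large a change in RNA could be. In each of 10 classes of brightness the median SD was larger without flaxseed than with it: 0.201 against 0.174 in the dimmest and 0.499 against 0.362 in the brightest class. Over all clones, 5905 (61.5%) had the larger SD in irradiated mice without flaxseed. Unirradiated mice showed the reverse, with a median SD of 0.358 with flaxseed and 0.304 in untreated mice. The lowest residual spreads of all arrays were those of mice 1 and 5 given both treatments, 0.271 and 0.278 log2 units.

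Small p-values were spread unevenly over the membrane. On its right side 210 clones were higher and 114 lower with flaxseed at an unadjusted p under 0.05, and on its left side 75 were higher and 181 lower. On the upper side 169 were higher and 118 lower, and on the lower side 116 and 177. Medians of the diet difference over blocks of spots ran from -0.39 to 0.41 log2 units among 384 blocks. With each array's local median removed, 164 were higher and 207 lower on the right and 123 and 148 on the left. On the upper side 132 were then higher and 178 lower, and on the lower side 155 and 177. Over all clones 287 were higher and 355 lower, a less even split than without the removal. Of the 580 clones, 424 (73.1%) kept an unadjusted p under 0.05 in the same direction, and no clone passed the adjustment. The 4 clones given by ID then had differences of 1.32 (SE 0.234), 1.69 (SE 0.354), -0.82 (SE 0.197) and -1.02 (SE 0.235), with limma adjusted p of 0.104, 0.167, 0.195 and 0.167.

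Arrays fell into 2 classes by their lowest background, over 10 units or under it, and 4 of the 5 irradiated arrays without flaxseed but 2 of the 5 with it were in the higher class. Within the higher class the diet differences of gene5360, gene4199, gene7396 and gene8314 were 1.25, 2.24, -0.96 and -0.83 log2 units, over 4 and 2 mice. Within the lower class they were 1.25, 1.13, -1.17 and -1.33, over 1 mouse without and 3 mice with flaxseed. The classes were set after seeing the data. With the class as a term in the fit 0 clones passed, and the smallest adjusted p was 0.176.

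The third question was whether flaxseed did the same in irradiated and in unirradiated lung. The diet differences come from different mice in the 2 settings. Without radiation 869 clones (9.05%) had an unadjusted p under 0.05 and 0 (0%) passed in limma, the smallest adjusted p being 0.0758. The test of the difference between the diet effects called 0 clones (0%) in limma. It gave 578 clones (6.02%) an unadjusted p under 0.05 and a smallest adjusted p of 0.0992. Its precision was lower, with a median half-width of 0.655 log2 units.

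Across all 9600 clones the diet differences in irradiated and unirradiated lung correlated with Pearson r = 0.0928 and Spearman rho = 0.102, and 5088 of them had the same sign. These points share a joint normalisation and a place on the membrane, and with each array's local median removed the values were 0.0371 and 0.0427. Of the 580 clones at an unadjusted p under 0.05 in irradiated lung, 336 (57.9%) had the same sign in unirradiated lung, beside 53% of all clones. At p under 0.05 in both settings were 85 clones (0.885% of all). They made up 14.7% of the irradiated list, where 9.05% of all clones were at that p in unirradiated lung. Of the unirradiated list they made up 9.78%, where 6.04% of all clones were at that p in irradiated lung. Of the 85, 56 pointed the same way, 25 higher and 31 lower with flaxseed. The shared normalisation and membrane place bear on these counts too. The 285 clones higher with flaxseed after radiation had a median diet difference of 0.61 there and of 0.03 in unirradiated lung. The 295 lower ones had -0.56 and -0.08.

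**Figure D4:**
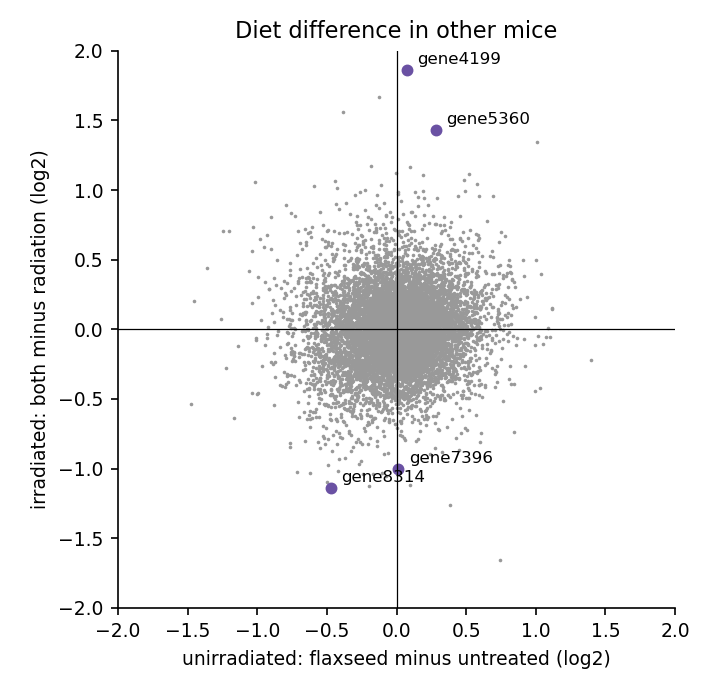
Diet difference of each of 9600 clones in irradiated lung (both treatments minus radiation, log2, vertical) against that in unirradiated lung (flaxseed minus untreated, log2, horizontal), each from 5 against 5 mice, with the 4 clones given by ID in purple. The cloud shows little tilt (r = 0.0928), and gene4199 and gene7396 lie near 0 on the horizontal axis.

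The last question was where the diet differences lay among clones that radiation changed. In the mean of both diets 626 clones (6.52%) differed with radiation: it raised 360 (3.75%) and lowered 266 (2.77%) at a limma adjusted p under 0.05. Both irradiated groups enter that choice with equal weight, but the arrays are shared with the diet comparison. The mean within-group variance was 0.185 in irradiated mice without flaxseed and 0.136 with it. With unequal variances the choice by itself favours diet differences against the direction of radiation. How much of the pattern below this gives was not tested, so what follows is a description. Of the 360 raised clones 241 were lower and 119 higher with flaxseed in irradiated lung, with a median of -0.105 log2 units. Of the 266 lowered clones 177 were higher and 89 lower, with a median of 0.144. Over all clones 50.1% were higher and the median was 0.000703. At an unadjusted p under 0.05, 28 raised clones were lower and 6 higher with flaxseed, and 34 lowered clones were higher and 2 lower. Together these are 9.44% of the raised and 13.5% of the lowered clones, beside 6.04% of all.

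Other scalings used the same lists and arrays, so they cannot test the effect of the choice. The medians kept their sign under them, at -0.107 and 0.159 after median scaling, -0.117 and 0.144 after cyclic loess, and -0.116 and 0.131 with the membrane trend removed. They point against the direction of radiation and are small beside it: the raised clones had a median radiation difference of 0.594 without and 0.68 with flaxseed, and the lowered clones of -0.709 and -0.815. In unirradiated lung the diet medians of the same lists were -0.204 and 0.243, in the same directions. The unirradiated mice enter the choice of these lists too. Their mean within-group variance was 0.186 with flaxseed and 0.138 in untreated mice, so the choice by itself favours these directions as well. The medians are therefore no separate check.

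Mouse by mouse the diets overlapped in 1 list and nearly separated in the other. The mean over the 360 raised clones was 9.24, 9.01, 9.13, 9.26 and 8.96 log2 intensity in irradiated mice without flaxseed and 8.96, 9.00, 8.97, 9.06 and 9.03 with it. The mice without flaxseed spread over the whole range of those with it and beyond. The mean over the 266 lowered clones was 7.98, 8.11, 8.16, 8.17 and 8.02 without flaxseed and 8.29, 8.14, 8.27, 8.23 and 8.29 with it. Only the second flaxseed-fed mouse lay within the range of the mice without flaxseed. Unirradiated mice were at 8.26 to 8.65 for the raised and 8.83 to 9.35 for the lowered clones, apart from all irradiated mice, as the choice of these clones gives by itself.

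**Figure D5:**
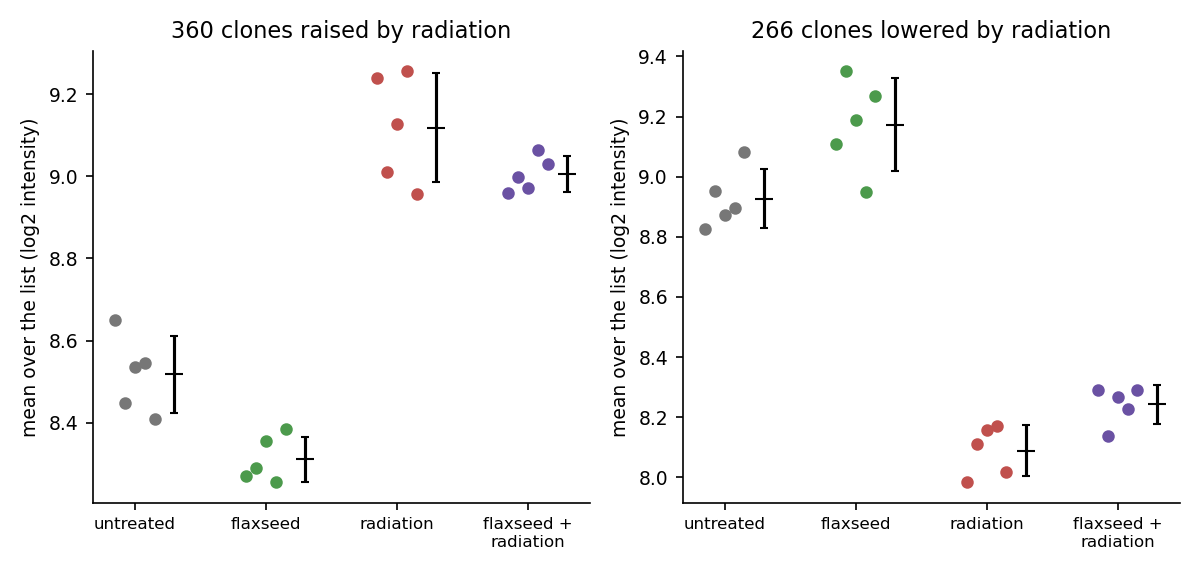
Mean log2 intensity per mouse over the 360 clones raised (left) and the 266 lowered (right) by radiation averaged over the diets, 5 mice per group, with the mean and SD of the group in black beside its points; the vertical axes do not start at 0. Irradiated mice with flaxseed sit at 8.96 to 9.06 and 8.14 to 8.29, and those without at 8.96 to 9.26 and 7.98 to 8.17.

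For these lists, too, the arrays set limits. The interval of the diet difference in irradiated lung lay within 2-fold for 327 of the 360 raised clones (90.8%) and for 196 of the 266 lowered clones (73.7%), against 89.7% of all. Among the 67 clones that radiation lowered by more than 2-fold it did so for 27 (40.3%), with a median half-width of 0.781 log2 units. The median diet difference of these 67 was 0.194, with 46 higher and 21 lower.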

How the data were processed

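Total RNA from lung was labelled with 33P by reverse transcription and read on 1 array per mouse, per the labels' protocols. Each array file as deposited gives, per the file headers, a median signal and a median background intensity for 9600 spots, linear and without background subtraction. Scanner and image software: not given in the sources used here. A table of processed intensities was deposited by the authors too: 98.1% of its values equal signal minus background over the array's median of that difference (relative tolerance 0.001), and 3558 (1.85%) are the constant 0.002. Its scale is linear and uncentred by clone, with column medians of 0.999 to 1, and it served as an alternative.

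Intensities were corrected with normexp (limma 3.58.1, R 4.3.3) plus an offset of 16.3, which is 0.1 times the median signal of 162.5 (the rule for medians under 500), then log2 transformed and quantile normalised over 20 arrays. The offset understates fold changes of dim clones. limma fitted 1 mean per group (16 residual, 6.08 prior degrees of freedom), with two-sided tests and Benjamini-Hochberg adjustment over all 9600 clones within a comparison. The number of arrays limits the precision. Group differences of array measures were tested by exact permutation (SciPy 1.17.1). The fit was run on simulated data with independent normal noise and 1 spread per clone for all groups. Unequal spread between groups, membrane trends and dependence between clones were not simulated, so that run does not cover them. The clones given by ID are the 2 with the smallest p in each direction. Alternatives covered background correction, offset, scaling, filters, covariates, membrane position and each mouse left out. Gene lists could not be used without gene names. Comparison and lists were chosen with earlier results of these data known.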

Additional observations from a re-analysis of the deposited data

Results flagged for a closer look

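No mouse stood far from the others of its group by the gap to its neighbour relative to the range, in 32 groups of 5 values from the clones given by ID, the array measures and the means over radiation-changed clones. Chance flags about 1 group in 20.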

How the results depend on the processing

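The count of 0 called clones for the diet in irradiated lung was 0 in 17 of 20 processing alternatives. It was 1 with no background correction, 1 in a test of the 7200 brightest clones and 2 in one of the 4800 brightest, where fewer clones were tested. It ranged from 0 to 6 with single mice left out. Among the 4800 brightest clones 258 had an unadjusted p under 0.05 and 4116 an interval within 2-fold, and in unirradiated lung 487 had an unadjusted p under 0.05, each by construction of 4800 tests. The difference between the diet effects called 2 clones with the membrane trend removed, the cause was not tested, and 0 to 1 with single mice left out. The share of clones with an interval within 2-fold was 67.6% in the authors' processed table, 71.4% with plain subtraction, 78.1% without the 2 arrays of lowest residual spread (added after seeing the data) and 94.8% with 4 times the offset. The split of unadjusted calls was 49.1% higher, between 39.2% (the authors' table with its constant as missing, added after seeing the data) and 57.0% (the 4800 brightest). The difference of gene5360 ran from 1.32 to 1.61 over processing alternatives (adjusted p 0.0347 to 0.265), of gene4199 from 1.69 to 2.03 (0.0455 to 0.385), of gene7396 from -1.23 to -0.74 (0.0785 to 0.519) and of gene8314 from -1.34 to -1.02 (0.167 to 0.526), and none changed sign. No paired analysis was possible because the mice are numbered 1 to 20 and no number is shared between groups.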
